A study of Mus musculus with 6 samples.

Results

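The collagens are the fibre and network proteins of the extracellular matrix. Their transcripts were compared between Lgr5-positive and Lgr5-negative cells of the mouse mammary gland on 6 Agilent 2-colour arrays, 3 per fraction. Collagen probes were the non-control probes whose RefSeq transcript belongs to a gene with a collagen alpha chain symbol (Col, a type number, the letter a and a chain number), which gave 63 of 55681 probes and 43 of 20887 named genes. Lgr5-positive cells were the GFP+ cells, and Lgr5-negative cells the GFP- cells, of the Lin-CD24+CD29hi gate (P4). Glands of virgin mice (strain C57/B6, genotype lgr5-egfp-ires-creert2) supplied both fractions, so the cells of the negative fraction carry the same EGFP allele in the Lgr5 locus. On each array the sample RNA carried Cy5 and a universal mouse reference RNA, pooled from mouse cell lines, carried Cy3. The labels do not say whether replicates 1 to 3 came from separate animals, so the p-values measure only the spread between these samples, which may be technical.

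Each collagen molecule is a triple helix of alpha chains, which may be identical or come from several genes of a type. Fibrillar collagens (types I, III, V and others) build the tensile fibres of connective tissue, whereas type IV forms the sheet-like network of basement membranes, on which mammary basal cells rest. Other types help to fasten epithelium to the tissue beneath it (VII and XVII), sit on fibril surfaces (IX, XIV and XVI) or form beaded filaments (VI).

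Array facts that bear on the collagens were as follows. Lgr5 had a log2 ratio of sample over reference of 4.87 ± 0.57 in Lgr5-positive cells and 3.40 ± 0.61 in Lgr5-negative cells (SD, n = 3 each), a difference in the direction of the labels in all 3 pairs of same-numbered arrays. Median Cy5 signal was 156 ± 16.7 on Lgr5-positive arrays and 229 ± 42.9 on Lgr5-negative arrays (SD, n = 3 each; two-sided exact permutation test p = 0.1, the smallest p that 3 against 3 allows). All 9 basal epithelial marker genes, Krt5, Krt14 and Trp63 among them, were well above background on each array, with a median log2 ratio of 4.20 to 4.96 on Lgr5-positive and 3.93 to 4.41 on Lgr5-negative arrays. Endothelial marker genes were lower in the Lgr5-positive fraction, and their values stand beside the collagens.

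Of the 43 collagen genes, 32 had a probe well above background in Cy5 on at least 3 of the 6 arrays and were tested, among 15680 genes in all. The log2 fold change is the log2 ratio in Lgr5-positive minus that in Lgr5-negative cells. With the group as the only term, 0 of 32 collagens passed a Benjamini-Hochberg adjusted p of 0.05 in limma, against 0.612% of all genes tested, and 9 of 32 had an unadjusted p under 0.05, against 8.2% of all genes tested. With the replicate number as a block, here called the paired fit, 7 of 32 collagens (21.9%) passed, against 7.72% of all genes tested. Col4a5, Col4a6, Col6a1, Col9a2 and Col16a1 rose in the paired fit (5 of 32, against 2.1% of all genes called higher), and Col3a1 and Col6a3 fell (2 of 32, against 5.61% called lower). The 9 collagens with an unadjusted p under 0.05 became 14 in the paired fit (43.8%, against 21.3% of all genes tested). Lgr5 itself, the sorted gene, did not pass in limma by group alone (adjusted p = 0.245) and did pass in the paired fit (adjusted p = 0.0021). As a whole the collagens did not lean to one side: 16 were higher and 16 lower, with a median log2 fold change of 0.00099, beside 0.01 over all genes tested.

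The same counts can be read without a model. The values of the fractions did not overlap in 10 of 32 collagens (31.2%, against 12.2% of all genes tested). Lgr5-positive values lay wholly above the Lgr5-negative ones in 6 (18.8%, against 4.06%) and wholly below them in 4 (12.5%, against 8.14%). Within pairs, 11 collagens were higher in the Lgr5-positive array of all 3 pairs (34.4%, against 22.5%), and 9 were lower in all 3 (28.1%, against 21.8%). The paired calls rest on few arrays. Without pair 1 there were 7 calls of 32, with Col22a1 in place of Col3a1, against 8.91% of all genes tested. Without pair 2 there were 0, against 2.08%. Without pair 3 the 2 calls were Col4a6 and Col9a2, against 5.45%. RNA was pooled over the cells of each fraction, so fewer cells of a type and less RNA per cell cannot be told apart for any of these differences.

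**Figure D1:**
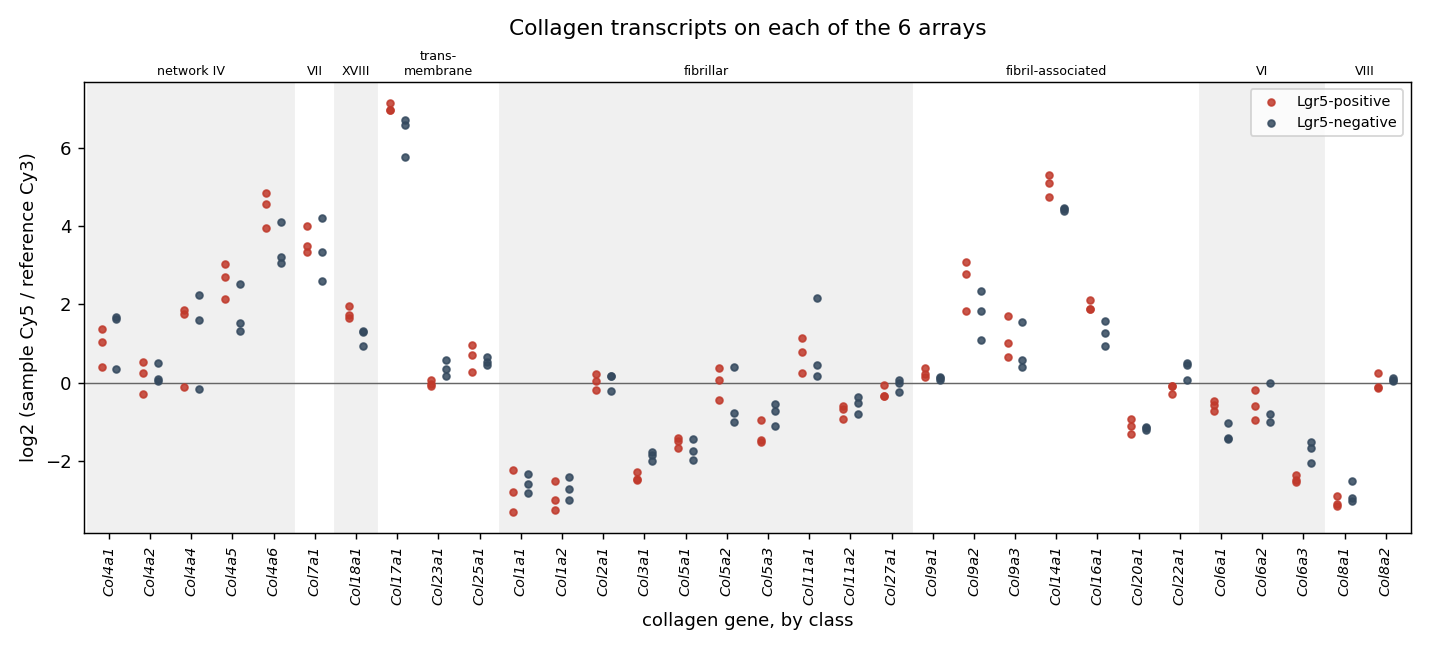
Log2 ratio of sample (Cy5) over reference (Cy3) for the 32 tested collagens, ordered by class along the x axis, with 1 point per array (3 Lgr5-positive, 3 Lgr5-negative). Ratios compare each gene with this reference RNA and are not levels that rank the genes. Col17a1 has the highest ratios in both fractions (mean 7.04 in Lgr5-positive and 6.37 in Lgr5-negative cells), and Col8a1 the lowest (mean -3.06 in Lgr5-positive and -2.84 in Lgr5-negative cells).

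**Figure D2:**
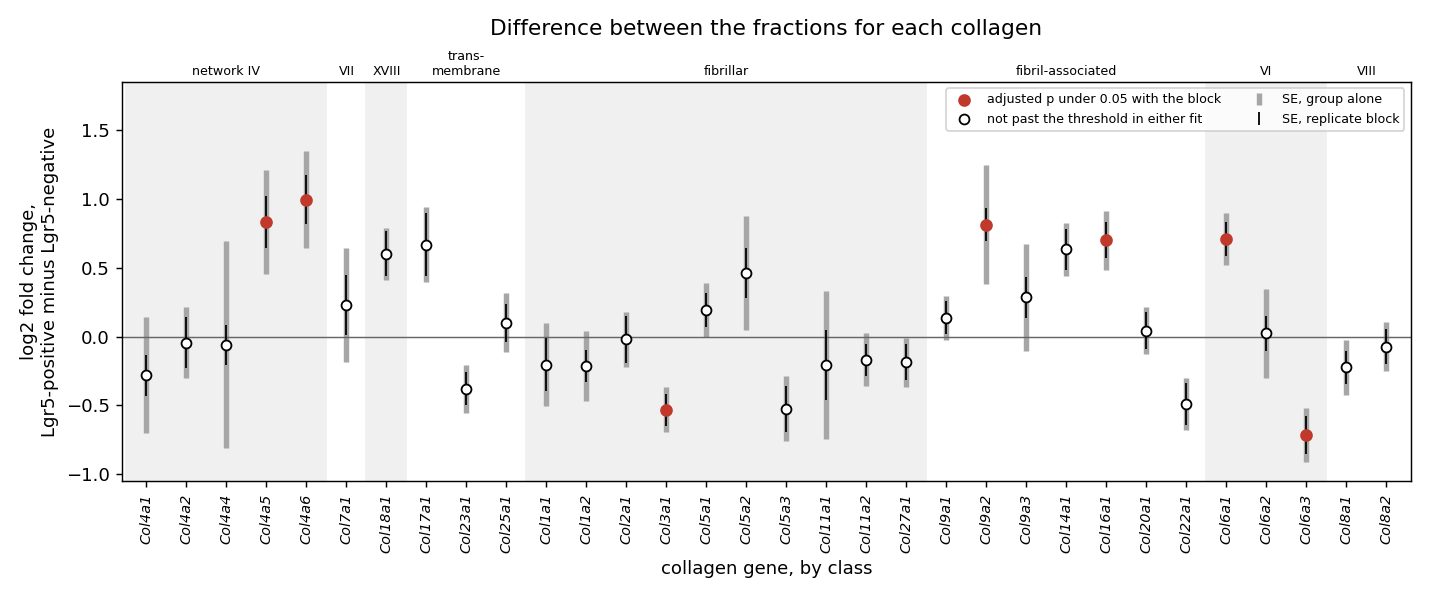
Log2 fold change (Lgr5-positive minus Lgr5-negative, y axis) of the same 32 collagens, with the standard error of the fit by group alone (wide grey bars) and of the paired fit (thin black bars). Filled points mark the 7 collagens past an adjusted p of 0.05 in the paired fit, from Col4a6 at 0.99 to Col6a3 at -0.72.

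Among the type IV chains, Col4a5 and Col4a6, which assemble with each other in basement membranes such as those of skin and smooth muscle, rose in the paired fit. Col4a1 and Col4a2, the chains found in nearly all basement membranes, did not pass in either fit. Col4a5 lies head to head with Col4a6 in the genome, and Col4a1 with Col4a2. The windows from 250 bases before to 50 bases after the start site, from RefSeq on GRCm38.p6, are printed for these 4 chains because they let the neighbours be read side by side. Col4a5 is at chrX:141475169-141475468 on the plus strand, Col4a6 at chrX:141474027-141474326 on the minus strand, Col4a1 at chr8:11312777-11313076 on the minus strand and Col4a2 at chr8:11312555-11312854 on the plus strand. Capitals mark the letters CCAAT and GGGCGG on the gene's strand, or ATTGG and CCGCCC where the match is on the other strand.
Col4a5: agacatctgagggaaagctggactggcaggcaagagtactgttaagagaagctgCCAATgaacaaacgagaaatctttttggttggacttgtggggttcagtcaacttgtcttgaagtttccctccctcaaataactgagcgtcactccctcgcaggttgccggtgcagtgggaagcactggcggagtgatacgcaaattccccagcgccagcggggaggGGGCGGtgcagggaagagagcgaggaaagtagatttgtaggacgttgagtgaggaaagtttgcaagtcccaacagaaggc
Col4a6: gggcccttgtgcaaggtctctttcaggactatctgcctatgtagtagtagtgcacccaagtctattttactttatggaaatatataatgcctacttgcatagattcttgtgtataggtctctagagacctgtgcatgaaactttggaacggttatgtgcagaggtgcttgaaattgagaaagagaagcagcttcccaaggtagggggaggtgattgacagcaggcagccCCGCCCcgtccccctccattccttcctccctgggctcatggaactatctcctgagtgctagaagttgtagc
Col4a1: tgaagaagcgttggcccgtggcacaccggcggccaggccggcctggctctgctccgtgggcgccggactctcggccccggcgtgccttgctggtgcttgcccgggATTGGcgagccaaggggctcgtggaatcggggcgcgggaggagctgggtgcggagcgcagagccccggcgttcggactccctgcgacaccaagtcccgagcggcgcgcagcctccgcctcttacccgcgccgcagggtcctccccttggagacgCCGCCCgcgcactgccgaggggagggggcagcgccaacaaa
Col4a2: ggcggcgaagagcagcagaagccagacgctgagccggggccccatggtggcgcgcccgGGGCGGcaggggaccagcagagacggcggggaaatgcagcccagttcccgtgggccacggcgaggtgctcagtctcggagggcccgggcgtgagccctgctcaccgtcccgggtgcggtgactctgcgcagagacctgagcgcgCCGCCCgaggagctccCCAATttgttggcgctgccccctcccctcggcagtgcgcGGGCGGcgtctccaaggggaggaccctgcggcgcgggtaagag

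The Col4a5 and Col4a6 start sites lie 1343 bases apart and their windows do not overlap. Those of Col4a1 and Col4a2 lie 21 bases apart, each inside the other gene as annotated, and their windows share 78 bases. Windows were found for 35 of the 43 collagen genes (38 windows) and were searched on both strands for TATAAA (the TATA box), CCAAT (the CCAAT box) and GGGCGG (a GC box). GGGCGG was in 23 of 38 collagen windows (60.5%), against 35.7% of all 32851 windows of that length. CCAAT was in 13 (34.2%, against 37.4%) and TATAAA in 5 (13.2%, against 13.6%). Such matches describe the letters of a window and are not known binding sites. The collagen windows were on average 59.0% G or C, and the content of all windows was not taken. Some collagen windows overlap, as those of Col4a1 and Col4a2 and those of Col6a2 do. The part of base content and overlap in the GGGCGG share was not tested. Of the printed windows, Col4a5 and Col4a1 hold 1 CCAAT and 1 GGGCGG, Col4a2 holds 1 CCAAT and 3 GGGCGG, Col4a6 holds 1 GGGCGG, and none of these 4 holds TATAAA. The GGGCGG match of Col4a1 and the last one of Col4a2 are the same site, read from opposite strands in the 78 shared bases.

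Col4a6 had log2 ratios of 3.96, 4.85 and 4.56 in Lgr5-positive cells, replicates 1 to 3 in turn, against 3.21, 4.11 and 3.07 in Lgr5-negative cells. The groups overlapped, yet the Lgr5-positive array was the higher one in each pair. The log2 fold change was 0.99 (1.99-fold), with an adjusted p of 0.443 by group alone (SE 0.35) and 0.022 in the paired fit (SE 0.18). A second Col4a6 probe, dimmer but also above background on all arrays, gave 0.26, and with the mean of both probes the gene no longer passed (0.63, adjusted p = 0.060 in limma's paired fit).

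Col4a5 had log2 ratios of 2.14, 3.03 and 2.70 on Lgr5-positive arrays, against 1.52, 2.53 and 1.32 on Lgr5-negative arrays. Again the groups overlapped and the Lgr5-positive array was higher in each pair, most so in pair 3, with pair differences of 0.62, 0.50 and 1.38. The log2 fold change was 0.83 (1.78-fold), with an adjusted p of 0.685 by group alone (SE 0.38) and 0.045 in the paired fit (SE 0.19). Without pair 3 it was 0.56.

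Col4a1 had log2 ratios of 0.40, 1.37 and 1.03 on Lgr5-positive arrays, against 0.35, 1.68 and 1.62 on Lgr5-negative arrays, so the pairs did not share a direction. Its log2 fold change was -0.28 (SE 0.15 in the paired fit, adjusted p = 0.351). Col4a2 had 0.54, 0.25 and -0.29 on Lgr5-positive arrays, against 0.05, 0.49 and 0.09 on Lgr5-negative arrays, and the log2 fold change was -0.045 (SE 0.19, adjusted p = 0.923 in the paired fit). Col4a4, a chain of the kidney filter membrane, gave -0.060 and also did not pass. Endothelial cells also make type IV collagen, and their 11 marker genes had a median log2 ratio of 1.26 to 2.63 on Lgr5-positive and 4.20 to 4.80 on Lgr5-negative arrays, with no overlap; their part in the type IV values was not tested. Whether Col4a5 and Col4a6 differ from Col4a1 and Col4a2 in their response was not tested.

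Col17a1, Col18a1 and Col7a1, which fasten epithelium or line its basement membrane, had higher means in Lgr5-positive cells but did not pass in either fit. Col17a1, the transmembrane collagen of hemidesmosomes, had log2 ratios of 6.97, 6.98 and 7.16 on Lgr5-positive arrays, against 6.60, 6.73 and 5.78 on Lgr5-negative arrays. The groups did not overlap, but the third Lgr5-negative array stood low, and the log2 fold change of 0.67 had an adjusted p of 0.146 in the paired fit (SE 0.23). Without pair 3 it was 0.31. Col18a1, a basement membrane collagen whose end fragment is endostatin, had 1.65, 1.73 and 1.97 on Lgr5-positive arrays, against 1.29, 1.32 and 0.93 on Lgr5-negative arrays. These groups did not overlap either, and the log2 fold change of 0.60 missed the threshold in the paired fit (adjusted p = 0.083, SE 0.17). A second Col18a1 probe gave 0.42. Col7a1, the chain of anchoring fibrils, had 3.33, 3.99 and 3.49 on Lgr5-positive arrays, against 3.33, 4.20 and 2.59 on Lgr5-negative arrays. Its log2 fold change of 0.23 had pair differences of -0.0018, -0.21 and 0.90, and was -0.11 without pair 3 and -0.24 with median centring in place of loess. Of the basal epithelial markers 9 of 9 had a positive log2 fold change, against 8153 of 15680 genes tested. Krt17, Cdh3 and Oxtr passed in the paired fit (3 of 9, against 2.1% of all genes called higher). Krt5 and Krt14 did not pass (adjusted p = 0.333 and 0.078 in limma's paired fit), and Trp63 and Myh11 lay near no change at 0.066 and 0.018. The part of basal epithelial cells in the differences of Col17a1, Col18a1 and Col7a1 was not tested.

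The type VI chains, which join into one beaded filament protein, went separate ways. Col6a1 had log2 ratios of -0.48, -0.72 and -0.56 on Lgr5-positive arrays, against -1.03, -1.42 and -1.44 on Lgr5-negative arrays. All Lgr5-positive values lay above all Lgr5-negative ones, and the log2 fold change was 0.71 (1.64-fold), with an adjusted p of 0.231 by group alone (SE 0.19) and 0.020 in the paired fit (SE 0.13). Col6a3 had -2.48, -2.37 and -2.54 on Lgr5-positive arrays, against -2.06, -1.51 and -1.67 on Lgr5-negative arrays. Here all Lgr5-positive values lay below, and the log2 fold change was -0.72, with an adjusted p of 0.256 by group alone (SE 0.20) and 0.028 in the paired fit (SE 0.14). Col6a2 lay between them at 0.023 (SE 0.13, adjusted p = 0.948 in the paired fit). With median centring in place of loess, which moved the median of all genes to -0.29, Col6a1 kept its sign at 0.29 but did not pass in the paired fit (adjusted p = 0.101). The difference between the chains was not itself tested.

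**Figure D3:**
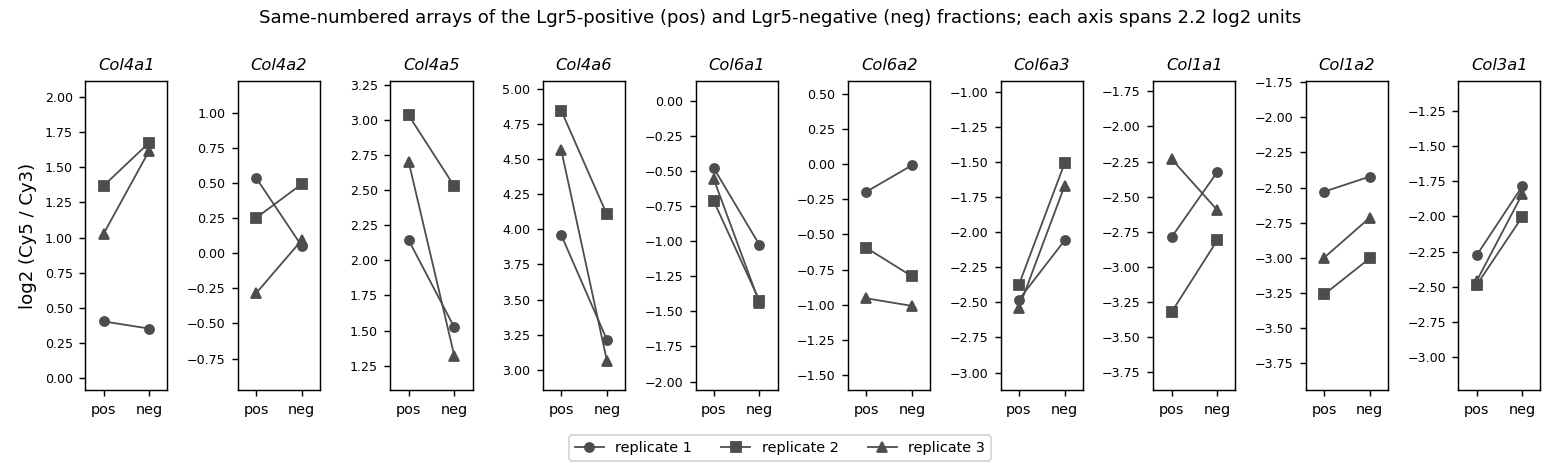
Log2 ratio of sample over reference (y axis, each panel spanning the same range) for 10 chains of types IV, VI, I and III, with the Lgr5-positive array left of the Lgr5-negative array of the same replicate number and a line joining each pair. Lines for Col4a5, Col4a6 and Col6a1 fall to the Lgr5-negative side in 3 of 3 pairs, those for Col6a3, Col1a2 and Col3a1 climb in 3 of 3, and those for Col4a1, Col4a2, Col6a2 and Col1a1 run both ways.

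Fibrillar collagens, the bulk proteins of stroma, tended below 0, with 8 of 10 tested genes lower in Lgr5-positive cells and a class median of -0.20, beside 0.01 over all genes tested. That lean was not seen with median centring in place of loess, where the class median of -0.26 lay 0.03 above the median of all genes. When 1 array was left out the class median lay between -0.23 and -0.061, nearest 0 without the second Lgr5-positive array and at -0.11 without the first Lgr5-negative one. The genes that were lower then numbered 6 to 8 of 10, with 6 without the first Lgr5-positive or the second Lgr5-negative array. Col3a1, the chain of reticular fibres, was the one that passed. It had log2 ratios of -2.28, -2.49 and -2.46 on Lgr5-positive arrays, against -1.78, -2.00 and -1.84 on Lgr5-negative arrays, with no overlap. Its log2 fold change was -0.53, with an adjusted p of 0.335 by group alone (SE 0.16) and 0.041 in the paired fit (SE 0.12). With the scanner's processed ratios Col3a1 kept the size of the difference at -0.52 but not the call (adjusted p = 0.106 in limma's paired fit).

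Col1a1, which with Col1a2 makes type I collagen of skin, bone and stroma, had log2 ratios of -2.79, -3.32 and -2.23 on Lgr5-positive arrays, against -2.33, -2.81 and -2.59 on Lgr5-negative arrays. The third pair ran opposite to the others, and the log2 fold change was -0.20 (SE 0.19, adjusted p = 0.61 in the paired fit). Col1a2 had -2.53, -3.26 and -3.00 on Lgr5-positive arrays, against -2.42, -3.00 and -2.71 on Lgr5-negative arrays. It was lower in all 3 pairs, by small amounts, and the log2 fold change was -0.22 (SE 0.12, adjusted p = 0.356 in the paired fit), and was at 0.09 when the Cy5 channel was used alone. The fibrillar class held 5 genes of 10 that were lower in all 3 pairs, against 21.8% of all genes tested, and Col5a1, which was higher in all 3, had a log2 fold change of 0.19. Both type I chains and Col3a1 lay well below the reference RNA in both fractions. Markers of fibroblasts, which make most fibrillar collagen, overlapped between the fractions, with a median log2 ratio of 0.75 to 1.32 on Lgr5-positive and 0.85 to 1.22 on Lgr5-negative arrays. Their members split, with Dcn, Lum and Pi16 lower and Fbln1 higher in the paired fit, and their part in the fibrillar differences was not tested.

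Collagens that sit on fibrils, or resemble those that do, tended above 0, with 6 of 7 tested genes higher in Lgr5-positive cells, 5 of them in all 3 pairs (against 22.5% of all genes tested), and a class median of 0.29 (0.15 with median centring, 0.44 above the median of all genes there). That median rests on few arrays. It was 0.15 without the second Lgr5-positive array, where 4 of 7 were higher, 0.14 without the first Lgr5-negative array and 0.16 without the third, but 0.63 without the second Lgr5-negative and 0.52 without the third Lgr5-positive array. Col9a2, known from cartilage, had log2 ratios of 2.79, 3.10 and 1.82 on Lgr5-positive arrays, against 1.84, 2.34 and 1.09 on Lgr5-negative arrays. The groups overlapped, with replicate 3 low in both fractions, while the pair differences of 0.95, 0.76 and 0.73 were close to each other. The log2 fold change was 0.81 (1.76-fold), with an adjusted p of 0.832 by group alone (SE 0.43) and 0.011 in the paired fit (SE 0.12). Its relatives Col9a1 and Col9a3, the other chains of type IX, gave 0.13 and 0.29 and did not pass, and a second Col9a1 probe gave -0.53.

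Col16a1, found near basement membranes and in skin, had log2 ratios of 1.88, 2.12 and 1.88 on Lgr5-positive arrays, against 1.26, 1.58 and 0.94 on Lgr5-negative arrays. The groups did not overlap, and the log2 fold change was 0.70 (1.62-fold), with an adjusted p of 0.328 by group alone (SE 0.21) and 0.025 in the paired fit (SE 0.13). Its other probes gave 1.02 and 0.22. Col14a1, a fibril-surface collagen of skin and tendon, was named after its values were seen because it lay just outside the threshold. It had 5.32, 4.76 and 5.11 on Lgr5-positive arrays, against 4.40, 4.43 and 4.46 on Lgr5-negative arrays, with no overlap. Its log2 fold change was 0.63 (SE 0.15, adjusted p = 0.0505 in limma's paired fit), and a second probe gave 0.34. Col14a1 passed under 3 of 9 other settings of the paired fit, with log2 fold changes of 0.15 to 1.27 over them. Col22a1, a collagen of tissue junctions, was the class member that was lower, at -0.49 (adjusted p = 0.119 in the paired fit).

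In the short-chain class, Col8a1, a network chain of vessel walls and cornea, had a log2 fold change of -0.22 (adjusted p = 0.354 in the paired fit). Col8a2, its partner, gave -0.073 on the probe that stood for the gene, chosen by the mean brightness of both dyes, and 0.91 on another. That other probe was above background on all arrays, and its values did not overlap between the fractions. It passed when probes were fitted (adjusted p = 0.0090 in limma's paired fit), so the result for Col8a2 depends on the probe. Among the transmembrane collagens, Col23a1 and Col25a1 gave -0.38 and 0.10 and did not pass. In all, 8 genes had 2 or more probes above the filter, and when probes rather than genes were fitted, 7 of 41 collagen probes were called higher (against 1.23% of all probes fitted) and 2 lower (against 3.18%) in the paired fit.

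The other 11 collagens were not tested, since none of their 16 probes was well above background on more than 2 of the 6 arrays. They were Col4a3, Col6a4, Col6a5, Col6a6, Col10a1, Col13a1, Col15a1, Col19a1, Col24a1, Col26a1 and Col28a1. Col15a1, a basement membrane collagen of vessels and muscle, had 3 probes. For 2 of them Cy5 was not well above background in any of the Lgr5-positive samples and was above it in 1 Lgr5-negative sample. The third was above it in 1 sample of each fraction and gave a log2 fold change of -0.37. On the brighter of the first 2 probes mean Cy5 was 1.23-fold lower in Lgr5-positive cells. That fold was taken from Cy5 alone (loess within arrays, then Aquantile between them) and is open to dye bias. Most values behind it, in both fractions, were not well above background, so no minimum fold can be stated.

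The collagens that lay far above the reference RNA were often also higher in Lgr5-positive cells, and those far below it lower. Of the 10 with a mean log2 ratio over 1, 8 had a positive log2 fold change, against 1174 of 1836 genes in all. Of the 8 with a mean log2 ratio under -1, 6 had a negative one, against 1311 of 2221 genes in all. A split at the reference itself showed less. Of the 19 collagens above it 11 were higher, against 4656 of 7848 genes in all. Below it 8 of 13 were lower, against 4335 of 7832 genes. Across the 32 collagens the mean ratio and the log2 fold change had Pearson's r of 0.65 and Spearman's rho of 0.62, beside -0.01 and 0.18 across all genes tested. Genes are not independent replicates and both axes come from the same 6 arrays, so these are descriptions.

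**Figure D4:**
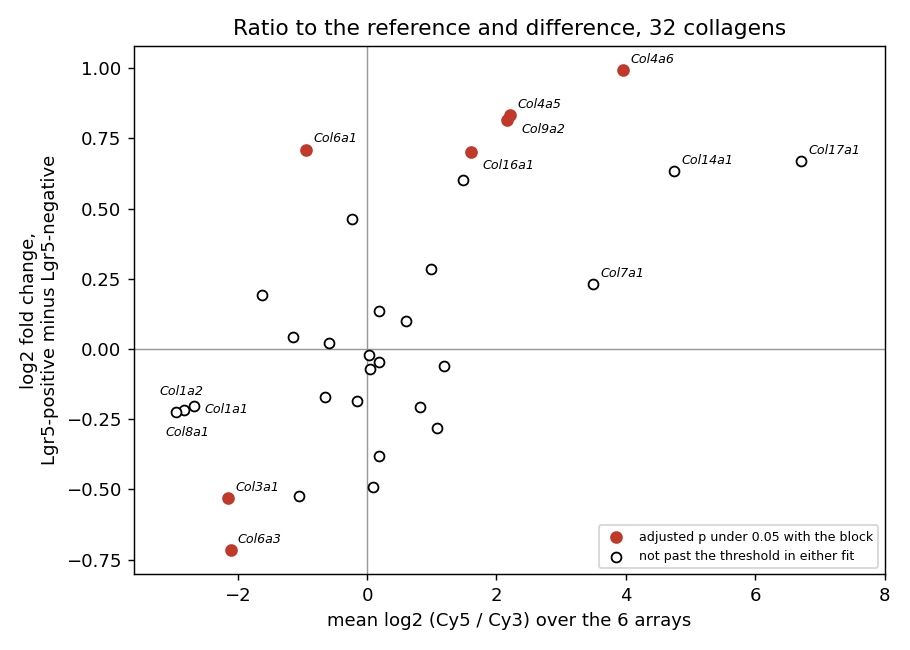
Log2 fold change (Lgr5-positive minus Lgr5-negative, y axis) against the mean log2 ratio of sample over reference on the 6 arrays (x axis) for the 32 tested collagens, with filled points for the 7 past an adjusted p of 0.05 in the paired fit. Col4a6, Col14a1 and Col17a1 stand at the upper right, Col3a1 and Col6a3 at the lower left, and Col6a1 is the called gene that is below the reference yet higher in Lgr5-positive cells.

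Genes that make, trim, crosslink and bind collagens were read from the same fit. Of 47 such genes tested, 5 passed in the paired fit (10.6%, against 7.72% of all genes tested). The 19 enzymes and chaperones of chain modification and folding, all tested, had a median log2 fold change of 0.14, beside 0.01 over all genes tested, and 0 passed in either fit. The lowest p-values by group alone were those of Serpinh1, the collagen chaperone of the endoplasmic reticulum, at 0.39, and Ppib, a prolyl isomerase, at 0.35, with adjusted p of 0.229 and 0.131 in limma's paired fit. Both were higher in all 3 pairs, with no overlap, but stood at -0.0098 and -0.054 with median centring, where the list median was -0.24 and that of all genes -0.29.

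Procollagen trimming held the call with the largest change among these lists. Adamts2, which removes the amino-terminal propeptide, had log2 ratios of 0.59, 0.88 and 0.77 on Lgr5-positive arrays, against -0.40, -0.28 and -0.54 on Lgr5-negative arrays. The groups did not overlap, and it rose by 1.15 (2.22-fold), with an adjusted p of 0.049 by group alone (SE 0.17) and 0.0038 in the paired fit (SE 0.12). A second Adamts2 probe, also above background on all arrays of the Lgr5-positive fraction, gave 0.0047. Adamts2 passed under 3 of 10 other settings, the paired fit being among these 3, and did not pass under 7. Named after their values were seen, Bmp1, the carboxy-terminal proteinase, rose in the paired fit by 0.66 (adjusted p = 0.042; 0.48 and 0.22 on its other probes), and Pcolce, which enhances that proteinase, fell by 0.83 (adjusted p = 0.017). The 6 tested genes of this list had a median of 0.21, which turned to -0.058 with the mean of all probes of a gene.

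Loxl3, a lysyl oxidase that crosslinks collagen and elastin, was the 1 of 6 crosslinking genes to pass in the paired fit, against 7.72% of all genes tested. Its log2 fold change was 0.70 (adjusted p = 0.025 in limma's paired fit, list median 0.16). The Loxl3 call was lost under 3 of 9 other settings of the paired fit. Of the 8 tested receptors 0 passed in either fit (list median -0.0097), with Ddr1, a collagen-binding receptor tyrosine kinase, at 0.79 and Itga1, a collagen-binding integrin chain, at -0.50. Among the 8 partners of hemidesmosomes and anchoring fibrils the median was 0.41 (-0.018 with median centring, 0.27 above the median of all genes there), and 5 were higher in all 3 pairs, against 22.5% of all genes tested. That median was 0.17 to 0.45 when 1 array was left out, lowest without the first Lgr5-negative array and at 0.26 without the third, and 0.27 with array weights. Cd151, a tetraspanin that binds laminin integrins, passed in the paired fit at 0.53 (adjusted p = 0.042), and gave 0.28 on its other probe.

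**Figure D5:**
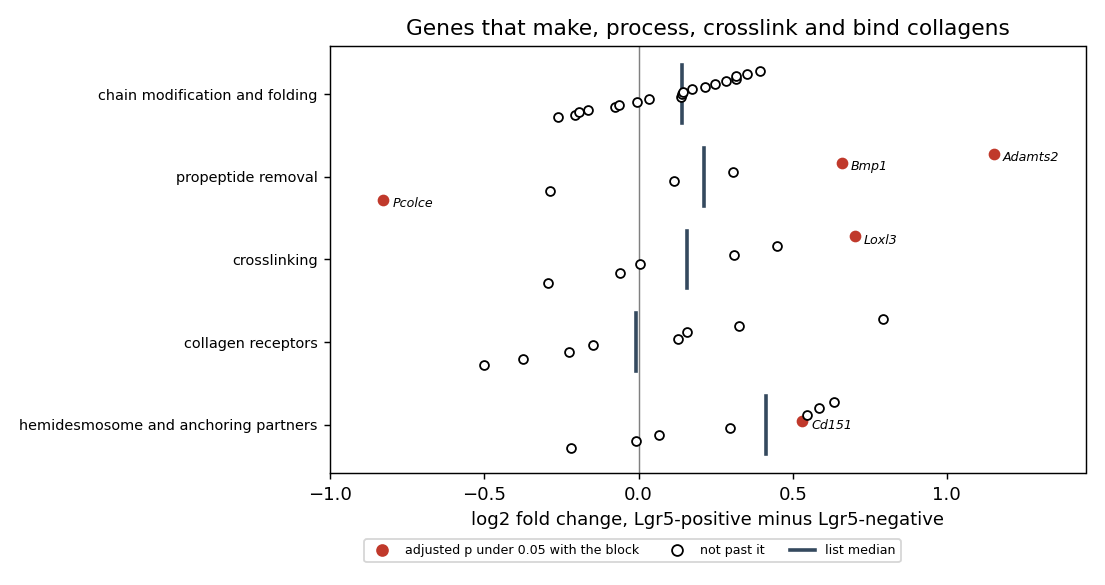
Log2 fold change (Lgr5-positive minus Lgr5-negative, x axis) of each tested gene in 5 lists of collagen-related genes (rows), with a vertical bar at the list median and filled points for genes past an adjusted p of 0.05 in the paired fit. The named points are Adamts2 at 1.15, Loxl3 at 0.70, Bmp1 at 0.66, Cd151 at 0.53 and Pcolce at -0.83.

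Beyond the medians given beside the collagens, the marker lists of other cells were as follows. The summed Cy5 signal of endothelial genes, on the log2 scale, was 13.6 to 15.0 on Lgr5-positive and 16.7 to 17.5 on Lgr5-negative arrays, and 9 to 10 of 11 were well above background on each Lgr5-positive array, against 10 to 11 on each Lgr5-negative one. Of the 11, 10 were lower in Lgr5-positive cells, 3 passed by group alone (Egfl7, Plvap and Tie1) and 8, these 3 among them, in the paired fit. Over all genes tested, 0.587% were called lower by group alone and 5.61% in the paired fit, the shares to read beside each of these lists. The Tie1 probe was above background in 0 of 3 Lgr5-positive samples, so its value there is only a bound. Pericyte genes had a median log2 ratio of -0.09 to 0.41 on Lgr5-positive and 0.40 to 0.95 on Lgr5-negative arrays, and 3 of 8 fell in the paired fit. Luminal epithelial genes had a median log2 ratio of 0.29 to 0.66 on Lgr5-positive and 0.75 to 1.16 on Lgr5-negative arrays, with no overlap. Of the 8, 6 were lower, 3 of them (Esr1, Kit and Ly6a) past the threshold in the paired fit. The other 2, Krt8 and Krt18, hardly differed, at 0.075 and 0.025. Leukocyte genes had -0.30 to 0.20 on Lgr5-positive and -0.21 to 0.52 on Lgr5-negative arrays. Of the 7, 4 had a positive log2 fold change and 3 a negative one, and 1, Cd74, fell in the paired fit. Adipocyte genes, 3 of 4 tested, had 0.018 to 0.72 on Lgr5-positive and 0.060 to 0.35 on Lgr5-negative arrays, and 0 passed in either fit. The part of these cells and of the dimmer Cy5 signal in the differences of Col3a1 and Col6a3, which were also lower, was not tested.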

How the data were processed

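RNA of 6 sorted samples was hybridised with a common reference. The authors deposited scanner output for each array, from Agilent Feature Extraction (11.0 in the submitters' processing notes, 11.0.1.1 per the file headers). Per the file headers it gives spot and background intensity as pixel medians, the scanner software's log10 ratio (Cy5 over Cy3), and flags for signal well above background. A value table the authors deposited for the series holds log2 ratios centred on each probe's median. Medians of its columns were -0.0016, 0.031 and 0.018 (Lgr5-positive, replicates 1, 2, 3) and 0.0064, -0.017 and -0.048 (Lgr5-negative). Its direction is that of the scanner ratios (r = 0.920 to 0.950 across probes), and what else was done to it is not known.

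Median intensities were corrected with normexp (offset 50) and loess-normalized within arrays in limma 3.58.1 (R 4.3.3), without control spots and outlier-flagged spots. Names came from RefSeq transcripts (GRCm38.p6, for names and promoter windows, since the arrays are annotated on mm9). Probes passed if flagged well above background in Cy5 on at least 3 of 6 arrays, and the brightest stood for its gene. On each array 50.9% to 74.4% of probes had that flag and 0 were saturated. Groups came from the labels and were compared with lmFit and eBayes, two-sided, Benjamini-Hochberg adjusted over all 15680 genes at 0.05. The fit was tested on simulated data.

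Same-numbered arrays deviated together (r = 0.810, 0.819 and 0.675 across genes for numbers 1 to 3, over 0.1 in each), so the numbers were taken to pair the arrays, and the paired fit is given where it changes a call. They also sit side by side on the slide, the Lgr5-positive one first each time, so slide position cannot be told apart from the fraction in a pair. Collagens were named if past the threshold in either fit, from a set followed whatever its values (Col1a1, Col1a2, Col3a1, Col4a1, Col4a2, Col6a1, Col7a1, Col15a1, Col17a1 and Col18a1), or as the largest change of a class; others named with values were chosen after their values were seen. In each pathway list the genes past the threshold by group alone, otherwise in the paired fit, otherwise the 2 with the lowest p, were named. The members, lists and rules were chosen with earlier results of these data known. The alternatives tried were background, normalization, filter, probe summary, array weights, the block and leaving out arrays.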

Additional observations from a re-analysis of the deposited data

How the results depend on the processing

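Of the collagens, 0 passed by group alone under each alternative tried, leave-one-out included, except the replicate block, which gave 7, with 5 pathway genes and 1210 genes in all. By group alone, the 96 calls over all genes became 9 with median centring, 44 with probes above background on all 6 arrays and 312 with array weights, and 0 to 371 when 1 array was left out. The 1 pathway call became 0 without background subtraction, with median centring, the scanner's processed ratios, the deposited table, the Cy5 channel alone, the all-array filter and the mean of all probes, and was 0 to 1 when 1 array was left out.

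In the paired fit, whose alternatives other than leaving out a pair were added after seeing the data, median centring gave 11 collagens (1 higher, 10 lower), 15 pathway genes and 5790 genes, with the median of all genes at -0.29 and of collagens at -0.24. The scanner's ratios gave 5 collagens, 2 pathway genes and 738 genes, the deposited values likewise 5 and 2, with 753, and the mean of all probes 5 collagens, 3 pathway genes and 1116 genes. Without 1 pair, 0 to 7 collagens, 1 to 5 pathway genes and 326 to 1397 genes passed. Col4a6, Col6a1, Col6a3 and Col9a2 each lost the call under 1 of the 9 settings that kept all 3 pairs, Col3a1 and Col16a1 under 3 and Col4a5 under 4. Without pair 2 all 7 lost it, without pair 3 all but Col4a6 and Col9a2, and Col3a1 lost it whichever pair was left out. Signs turned for Col7a1 (-0.24), Serpinh1 (-0.0098) and Ppib (-0.054) with median centring and for Col1a2 (0.088) and Col4a2 (0.045) with Cy5 alone, in both fits. Leaving out 1 array gave -0.48 to 0.067 for Col1a1, -0.23 to 0.18 for Col4a2 and -0.16 to 0.64 for Col7a1, and leaving out a pair gave -0.31 to 0.12 for Col4a2 (0.053 without pair 2) and -0.11 to 0.45 for Col7a1; beyond the shift of all genes and the fewer samples, the cause was not tested. All arrays lay on 1 slide, so the slide as a block was not run. The number of arrays limits precision.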
